A study of Mus musculus with 15 samples.

Results

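The erythroid effector and surface genes described here are Car1, Car2, Alas2, Epor, Icam4, Ermap, Rhag, Tspan8 and Mns1, most of them known from red cell precursors. They were chosen by name, with earlier results of these data known, and make up 9 of the 19937 genes tested. Each was measured by 1 probe set, a group of short probes along the transcript that the array combines into 1 value. Expression is given on the log2 scale, on which a difference of 1 is a 2-fold change.

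The study measured Cebpa mutant myeloid progenitors of female C57BL/6 mice on Affymetrix Mouse Gene 1.0 ST arrays, in 5 groups of 3 arrays each, and its stated purpose was to find deregulated genes in pre-leukemic cells. Cebpa encodes C/EBPα, a transcription factor that granulocyte and monocyte formation needs. Bone marrow was taken 3 weeks after the conditional knockout. The sort for granulocyte-macrophage progenitors (GMPs) took cKit+ FcgRII+ cells that were Lin-, Sca1-, CD41- and CD150-. The GMP groups were cebpa fl/p30; Mx1Cre (GMP fl/p30), cebpa fl/BRM2; Mx1Cre (GMP fl/BRM2) and cebpa fl/+; Mx1Cre (GMP fl/+, the control). Pre-granulocyte-macrophage progenitors (preGMs), the more immature population, were sorted with FcgRII- and Endoglin- in place of FcgRII+. The preGM groups were cebpa fl/p30; Mx1Cre (preGM fl/p30) and cebpa +/+, with the Cre written as Mx1Ce in its label (preGM +/+, the control). The fl allele is the one that Cre removes, the p30 allele makes only the shorter form of C/EBPα, and the BRM2 allele carries changes in its DNA-binding basic region. The GMP control therefore keeps 1 intact allele after deletion and the preGM control keeps both. Mx1Cre is driven by an interferon-inducible promoter that is active in blood cells and also in other tissues. The fl/p30 GMPs and preGMs came from the same 3 animals, and every other array came from an animal of its own.

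Red cells arise from progenitors that separate early from the granulocyte and macrophage branch. The transcription factor Gata1 switches on genes for heme and globin synthesis, membrane proteins and the receptor for erythropoietin (Epo), while C/EBPα drives the granulocyte and macrophage branch. Carbonic anhydrases Car1 and Car2 interconvert carbon dioxide and bicarbonate in the cytosol of red cells. Alas2 is the erythroid form of the first enzyme of heme synthesis. Epor is the Epo receptor. Icam4, Ermap and Rhag are red cell surface proteins that carry or associate with blood group antigens: an adhesion molecule, an immunoglobulin-like membrane protein and the Rh-associated glycoprotein. Tspan8 is a tetraspanin, a membrane protein with several spans. Mns1 is known chiefly from cilia and sperm tails, so by its known function it is neither an erythroid effector nor a surface protein, and it is kept here under its gene name.

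Promoter sequences are shown for the members whose window held the sequence that Gata1 and its relatives bind. RefSeq windows (build GRCm38.p6), running from 250 bases before to 50 bases after a gene's start, were found for 7 of the 9 members, and Car1 and Car2 were not among them. The letters searched were AGATAA and TGATAA, on both strands. They occurred in 5 of the 7 windows and in 18.6% of all 32851 windows of the same length. Each line below gives the 120 bases before the start, 5′ to 3′ on the gene's strand, with the match in capitals. In all 5 the match is the reverse complement, TTATCT or TTATCA.
Icam4: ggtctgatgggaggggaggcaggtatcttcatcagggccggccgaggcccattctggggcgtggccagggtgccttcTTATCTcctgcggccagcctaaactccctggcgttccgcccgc
Ermap: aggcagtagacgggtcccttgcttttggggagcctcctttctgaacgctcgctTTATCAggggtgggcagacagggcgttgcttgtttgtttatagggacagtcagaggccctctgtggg
Epor: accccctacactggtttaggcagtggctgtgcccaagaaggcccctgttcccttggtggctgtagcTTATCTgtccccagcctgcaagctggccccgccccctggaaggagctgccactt
Alas2: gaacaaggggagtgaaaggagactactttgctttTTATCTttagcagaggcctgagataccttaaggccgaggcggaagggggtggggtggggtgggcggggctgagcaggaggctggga
Rhag: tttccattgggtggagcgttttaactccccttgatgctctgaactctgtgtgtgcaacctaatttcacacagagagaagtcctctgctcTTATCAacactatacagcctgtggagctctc

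The Icam4 stretch lies at chr9:21029312-21029431 on the plus strand, with its match starting 43 bases before the gene's start. The Ermap stretch lies at chr4:119189996-119190115 on the minus strand, with the match starting 67 bases before the start. The Epor stretch is chr9:21963577-21963696 on the minus strand, and its match starts 54 bases before the start. The Alas2 stretch is chrX:150547297-150547416 on the plus strand, and its match starts 86 bases before the start. The Rhag stretch is chr17:40811029-40811148 on the plus strand, and its match, 31 bases before the start, is the nearest of the 5. The 5-letter core CACCC, known from binding sites of Klf factors, also occurred in 5 of the 7 windows, against 57.5% of all windows. The C/EBP letters TTGCNNAA were found in the Tspan8 window alone (10.8% of all windows), and the Stat letters TTCNNNGAA in 0 of 7 (8.3% of all windows). A match of letters is a description of the window and says nothing about binding in these cells.

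In GMPs, most of these genes were higher with either mutant allele. With fl/p30, 6 of the 9 were called higher than in GMP fl/+ and 0 lower, and with fl/BRM2 also 6 higher and 0 lower. A gene was called at a limma adjusted p under 0.05, adjusted over all genes. Of all genes, 4.69% were called higher and 1.37% lower in GMP fl/p30, and 1.89% higher and 0.642% lower in GMP fl/BRM2. The median log2 difference of the 9 was 1.19 with fl/p30, against -0.04 over all genes, and 1.22 with fl/BRM2, against -0.02 over all genes. All 3 mutant arrays were above all 3 GMP fl/+ arrays for 7 of the 9 genes with fl/p30 (9.16% of all genes) and for 8 of the 9 with fl/BRM2 (6.74% of all genes). Both comparisons use the same 3 GMP fl/+ arrays, so the second is not independent of the first. The 9 genes were chosen with earlier results of these data known, so these counts are no independent support. In preGMs, 0 of the 9 were called by limma between fl/p30 and +/+, and 1 had an unadjusted p under 0.05, against 2794 of all 19937 genes.

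**Figure D1:**
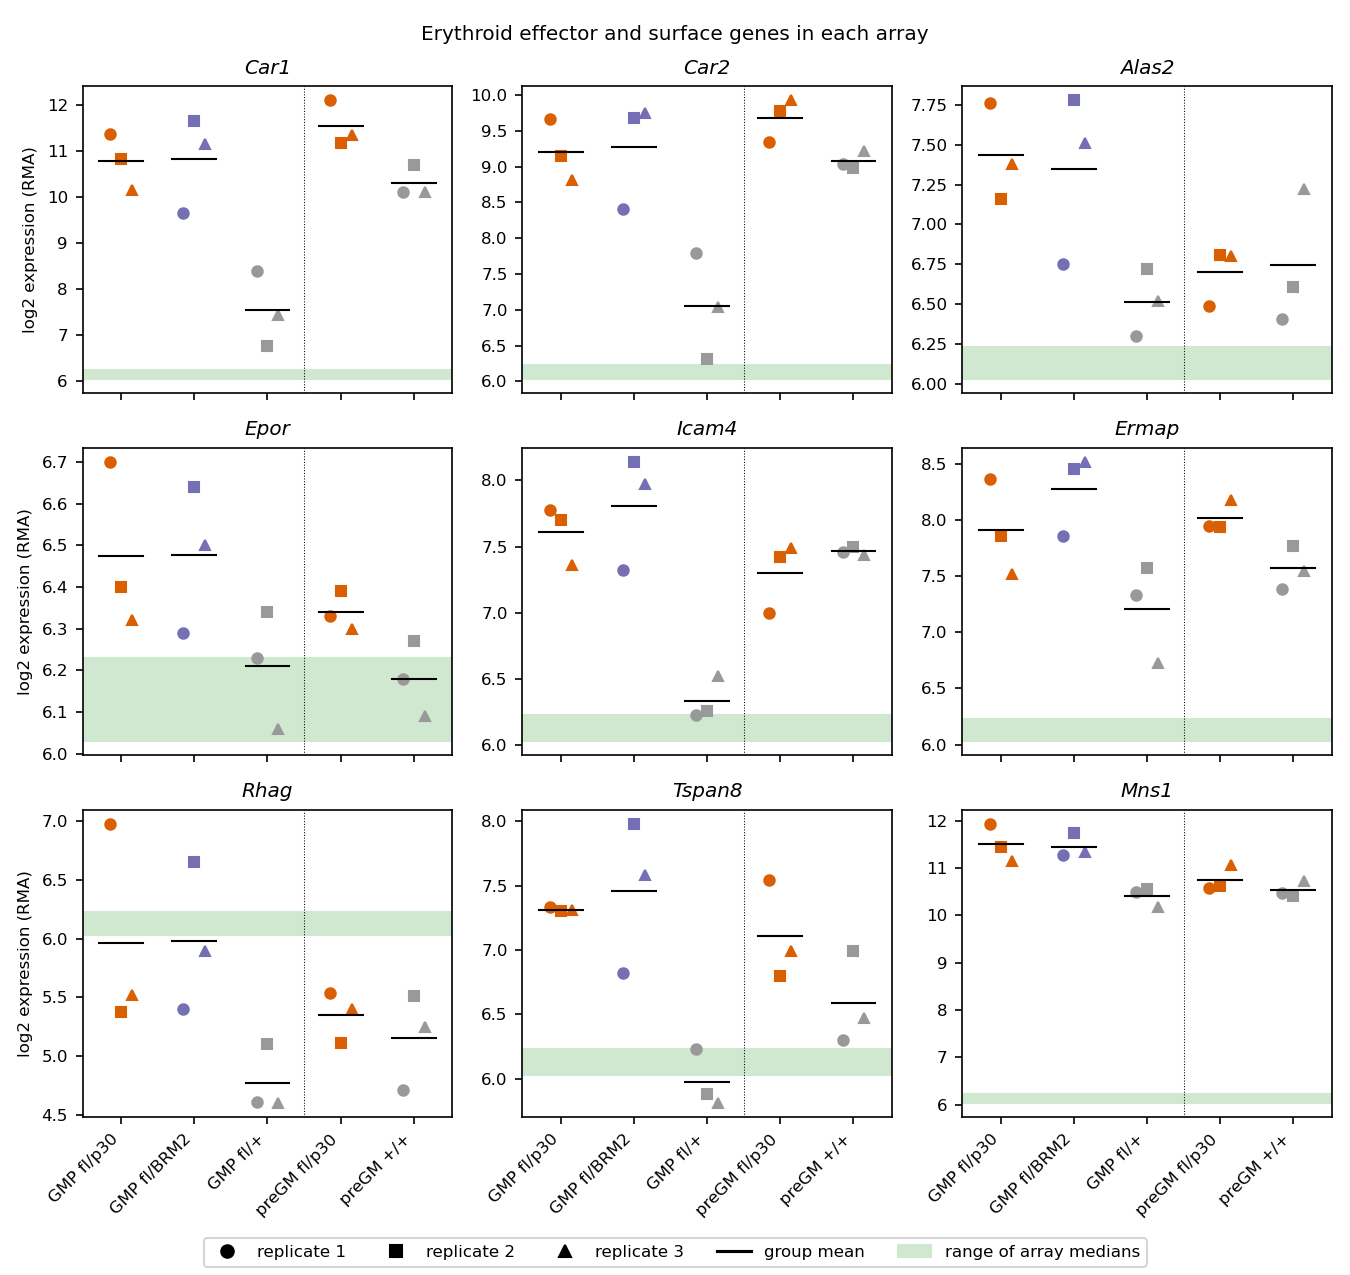
Log2 expression (RMA, vertical axis, a separate range for each gene) of the 9 genes in each of the 15 arrays, with group means as lines, replicates as marker shapes and the range of the 15 array medians, 6.03 to 6.23, as a green band. GMP fl/+ has the lowest mean for 8 of the 9 genes, and Rhag lies below the band in most arrays.

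Car1 (probe set 10497337) showed the widest range. It was at 11.37, 10.84 and 10.16 log2 units in GMP fl/p30 and at 9.66, 11.67 and 11.15 in GMP fl/BRM2, against 8.40, 6.75 and 7.44 in GMP fl/+. Every mutant GMP array stood above every GMP control array. The log2 difference was 3.26 ± 0.49 (SE, n = 3 arrays per group) with fl/p30, a 9.6-fold higher level with a limma adjusted p of 0.0013. With fl/BRM2 it was 3.30 ± 0.49, 9.84-fold, with a limma adjusted p of 0.00246. In preGMs, Car1 was at 12.12, 11.18 and 11.35 in fl/p30, against 10.12, 10.70 and 10.11 in +/+. The preGM groups did not overlap, and the difference of 1.24 had a 95% interval of 0.19 to 2.29 and a limma adjusted p of 0.273, so it was not called. In order of mean level, preGM fl/p30 came first, then GMP fl/BRM2, GMP fl/p30 and preGM +/+, with each neighbouring pair overlapping. GMP fl/+ came last, apart from all of them.

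Car2 (probe set 10490923) had the same order of group means as Car1. GMP fl/p30 arrays read 9.67, 9.15 and 8.81 and GMP fl/BRM2 arrays 8.41, 9.68 and 9.75, against 7.79, 6.32 and 7.04 in GMP fl/+. All mutant GMP arrays were above the control arrays here too. Car2 was 4.48-fold higher with fl/p30 (log2 difference 2.16 ± 0.37 SE, limma adjusted p = 0.00328) and 4.69-fold higher with fl/BRM2 (2.23 ± 0.37 SE, limma adjusted p = 0.00533). In preGMs it was at 9.34, 9.78 and 9.93 in fl/p30, against 9.03, 8.98 and 9.22 in +/+. The fl/p30 preGM arrays were all higher, but the difference of 0.61, with a 95% interval of -0.19 to 1.40, was not called. Of the other 14 carbonic anhydrases measured, Car13 alone was called higher in both GMP mutants, by 1.13 with fl/p30 and 1.11 with fl/BRM2, and 0 were called lower. The median log2 difference of these 14 was 0.00 with fl/p30 and -0.02 with fl/BRM2. The Car13 call was lost on leaving out any of 4 arrays in each comparison, with limma adjusted p-values up to 0.0772 with fl/p30 and 0.186 with fl/BRM2.

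Alas2 (probe set 10602372) was at 7.76, 7.16 and 7.38 in GMP fl/p30 and at 6.75, 7.78 and 7.51 in GMP fl/BRM2, against 6.30, 6.72 and 6.52 in GMP fl/+. All 6 mutant arrays were above the controls, the lowest of them by a small margin. With fl/p30 the level was 1.89-fold higher (log2 difference 0.92 ± 0.25 SE, limma adjusted p = 0.047). That call was lost on leaving out any 1 of 12 of the 15 arrays, with limma adjusted p-values up to 0.185. It was also lost when the animal was kept as a replicate block (limma adjusted p = 0.0666). With fl/BRM2 the difference was 0.83 and the limma adjusted p 0.112, so Alas2 was not called. The preGM arrays read 6.49, 6.81 and 6.80 in fl/p30, against 6.41, 6.61 and 7.22 in +/+, and the groups overlapped. Alas2 levels ranked from high to low as GMP fl/p30, GMP fl/BRM2, preGM +/+, preGM fl/p30 and GMP fl/+, and each neighbouring pair overlapped.

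The other genes of heme synthesis were not called in the GMP mutants. Of 12 genes besides Alas2, 0 were called by limma in either direction with either allele, while 4 with fl/p30 and 5 with fl/BRM2 had an unadjusted p under 0.05. Of all 19937 genes, 3989 with fl/p30 and 2985 with fl/BRM2 had an unadjusted p under 0.05. The following median is of the 12 heme synthesis genes. Their median log2 difference was 0.09 with fl/p30 and 0.10 with fl/BRM2. Without GMP fl/+ replicate 1, 2 of the 12 were called higher and 2 lower with fl/p30, and 3 higher and 2 lower with fl/BRM2. Alas1, the form of the same enzyme found in most cells, averaged 9.02 in GMP fl/BRM2, against 10.56 in GMP fl/+, a difference of -1.54 with a limma adjusted p of 0.242. In GMP fl/p30 the Alas1 arrays were spread widely, at 6.99, 8.80 and 10.33, against 10.63, 10.42 and 10.63 in GMP fl/+. In preGMs Alas1 averaged 7.21 in fl/p30, against 8.71 in +/+ (limma adjusted p = 0.289), and Alas2 differed there by -0.05. Of the globins, 3 embryonic genes were measured and 0 were called by limma in either mutant, with 0 at an unadjusted p under 0.05 with fl/p30 and 1 with fl/BRM2. Hbb-bh1 (3.40 to 3.91) and Hbb-y (4.48 to 6.02) lay below the array medians in all arrays, and Hba-x (5.67 to 6.47) around them. The array resolves differences least at these levels, so the lack of a call says little about these genes. The adult globins were also among the 10 entries looked for, but were not among the 19937 genes with 1 symbol, so they have no values here.

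Epor (probe set 10591660) lay close to the array medians throughout. It was at 6.70, 6.40 and 6.32 in GMP fl/p30 and at 6.29, 6.64 and 6.50 in GMP fl/BRM2, against 6.23, 6.34 and 6.06 in GMP fl/+. The groups overlapped in both comparisons, and the differences of 0.26 and 0.27 (limma adjusted p = 0.268 and 0.341) were not called. The preGM arrays read 6.33, 6.39 and 6.30 in fl/p30, against 6.18, 6.27 and 6.09 in +/+, without overlap and with a difference of 0.16 that was not called. Each neighbouring pair of groups overlapped in the order GMP fl/BRM2, GMP fl/p30, preGM fl/p30, GMP fl/+ and preGM +/+. Jak2, the kinase that Epor signals through and that other cytokine receptors use too, averaged 10.06 in GMP fl/p30 and 9.79 in GMP fl/BRM2, against 8.77 in GMP fl/+, and was called higher in both. The difference was 1.29 with fl/p30 (limma adjusted p = 0.00351) and 1.02 with fl/BRM2 (limma adjusted p = 0.028). Leaving out any of 4 arrays ended the fl/BRM2 call for Jak2 (limma adjusted p up to 0.174). Of the 14 Epo signalling genes other than Epor, Jak2 was the 1 called higher with fl/p30, and in GMP fl/BRM2 the inhibitory adaptor Sh2b3 was called lower as well, by -0.56 on the log2 scale. The Sh2b3 call was lost without any 1 of 6 arrays (limma adjusted p up to 0.165).

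Icam4 (probe set 10583529) separated the GMP groups clearly. Its arrays read 7.78, 7.70 and 7.36 in GMP fl/p30 and 7.32, 8.14 and 7.97 in GMP fl/BRM2, against 6.23, 6.26 and 6.52 in GMP fl/+. The lowest mutant array was well above the highest control array. Icam4 was 2.42-fold higher with fl/p30 (log2 difference 1.28 ± 0.19 SE, limma adjusted p = 0.0014) and 2.77-fold higher with fl/BRM2 (1.47 ± 0.19 SE, limma adjusted p = 0.000927). The preGM arrays read 7.0, 7.42 and 7.49 in fl/p30, against 7.46, 7.50 and 7.44 in +/+, and the difference of -0.16 was not called. The 4 groups other than GMP fl/+ overlapped from neighbour to neighbour, and GMP fl/+ lay below them all. Of the other 3 Icam family genes, 0 were called by limma in either mutant, and 1 had an unadjusted p under 0.05 in each. Of all 19937 genes, 3989 with fl/p30 and 2985 with fl/BRM2 had an unadjusted p under 0.05.

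Ermap (probe set 10515848) was at 8.37, 7.86 and 7.52 in GMP fl/p30 and at 7.86, 8.46 and 8.52 in GMP fl/BRM2, against 7.33, 7.57 and 6.73 in GMP fl/+. The fl/BRM2 arrays were all above the control arrays, while 1 fl/p30 array fell within them. Ermap was called higher with fl/BRM2, by 2.1-fold (log2 difference 1.07 ± 0.24 SE, limma adjusted p = 0.0313), and not with fl/p30 (0.71 ± 0.24 SE, limma adjusted p = 0.109). The fl/p30 difference ran from 0.47 to 0.90 with single arrays left out. It was called on leaving out replicate 3 of GMP fl/p30, and with array weights (0.89, limma adjusted p = 0.00571). The direct difference between the mutants, -0.36 for fl/p30 minus fl/BRM2, had a 95% interval of -0.88 to 0.16 and was not called. The fl/BRM2 call was lost on leaving out preGM +/+ replicate 3, GMP fl/+ replicate 3 or GMP fl/BRM2 replicate 2 or 3, with limma adjusted p-values up to 0.174. In preGMs Ermap was at 7.95, 7.94 and 8.18 in fl/p30, against 7.39, 7.77 and 7.55 in +/+. These groups did not overlap, and the difference of 0.45 had a limma adjusted p of 0.426. Ermap ranked from high to low as GMP fl/BRM2, preGM fl/p30, GMP fl/p30, preGM +/+ and GMP fl/+, with overlap between each neighbouring pair.

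Rhag (probe set 10445192) lay above its own array's median in 2 of the 15 arrays. It read 6.98, 5.38 and 5.52 in GMP fl/p30 and 5.40, 6.65 and 5.90 in GMP fl/BRM2, against 4.61, 5.10 and 4.60 in GMP fl/+. Every mutant array was above the controls, and 1 array in each mutant group, at 6.98 and 6.65, was also above the array medians. The differences of 1.19 with fl/p30 and 1.22 with fl/BRM2 had standard errors of 0.38 and limma adjusted p-values of 0.0854 and 0.121, so neither was called. With the animal as a replicate block, the fl/p30 difference had a limma adjusted p of 0.0492. Without GMP fl/p30 replicate 1 it was 0.68, with a limma adjusted p of 0.283. The fl/BRM2 difference was called without GMP fl/p30 replicate 1 and with array weights (1.34, limma adjusted p = 0.0204), while its limma adjusted p reached 0.485 with single arrays left out. In preGMs Rhag was at 5.54, 5.11 and 5.40 in fl/p30, against 4.71, 5.51 and 5.25 in +/+. The group means ran from GMP fl/BRM2 through GMP fl/p30, preGM fl/p30 and preGM +/+ to GMP fl/+, and each neighbouring pair overlapped. At these levels, near the background of the array, no fold is given. Of the other 3 Rh family genes, 0 were called by limma in either mutant, and 0 had an unadjusted p under 0.05.

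Tspan8 (probe set 10366446) was at 7.33, 7.30 and 7.31 in GMP fl/p30 and at 6.82, 7.98 and 7.58 in GMP fl/BRM2, against 6.23, 5.88 and 5.81 in GMP fl/+. The 3 fl/p30 arrays lay closer together than those of any other group. All mutant arrays were above the control arrays, which lay at or below the range of array medians. The log2 difference was 1.34 ± 0.26 (SE) with fl/p30, with a limma adjusted p of 0.00749, and 1.49 ± 0.26 (SE) with fl/BRM2, with a limma adjusted p of 0.00756. Without GMP fl/BRM2 replicate 2 the limma adjusted p of the fl/BRM2 difference was 0.0514. The preGM arrays read 7.54, 6.80 and 6.99 in fl/p30, against 6.30, 6.99 and 6.47 in +/+, with overlap and no call. From high to low, GMP fl/BRM2, GMP fl/p30, preGM fl/p30 and preGM +/+ overlapped from neighbour to neighbour, and GMP fl/+ lay apart at the bottom. Of 25 other tetraspanins, 3 were called higher with fl/p30 (Tspan13 by 2.23, Cd9 by 1.47 and Tspan6 by 0.83) and Tspan13 and Cd9 were called higher with fl/BRM2, by 2.06 and 1.21. None of the 25 was called lower with either allele, and their median difference was 0.05 and 0.01. Tspan6 averaged 5.60 in GMP fl/p30 and 4.77 in GMP fl/+, both below the range of array medians. The Tspan6 call was lost without any 1 of 4 arrays (limma adjusted p up to 0.129). Without GMP fl/+ replicate 1 the fl/p30 count was 7, and the Cd9 call in GMP fl/BRM2 was lost without any 1 of 11 arrays (limma adjusted p up to 0.222).

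Mns1 (probe set 10586907) was at 11.94, 11.44 and 11.16 in GMP fl/p30 and at 11.27, 11.74 and 11.34 in GMP fl/BRM2, against 10.49, 10.56 and 10.17 in GMP fl/+. The mutant GMPs stood above all other groups. Mns1 was 2.15-fold higher with fl/p30 (log2 difference 1.11 ± 0.20 SE, limma adjusted p = 0.00438) and 2.06-fold higher with fl/BRM2 (1.04 ± 0.20 SE, limma adjusted p = 0.0119). Leaving out GMP fl/+ replicate 3 or GMP fl/BRM2 replicate 2 ended the fl/BRM2 call (limma adjusted p up to 0.0857). The preGM arrays read 10.58, 10.62 and 11.06 in fl/p30, against 10.47, 10.42 and 10.72 in +/+, and overlapped. Between the controls of the stages, GMP fl/+ minus preGM +/+ was -0.13 for Mns1, with a 95% interval of -0.55 to 0.30.

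The number of calls changed with the arrays fitted and with the weight given to each. When only the 6 arrays of a comparison were fitted, 3 genes were called higher with fl/p30 (Car1, Icam4 and Tspan8) and 1 with fl/BRM2 (Icam4), at the same differences, beside 0.792% and 0.512% of all genes called higher. With array weights, which count an array less the more it departs from its group, 7 were called with fl/p30, Ermap being added, and all 9 with fl/BRM2, where Epor, Alas2 and Rhag were added. The weights also raised the share of all genes called higher, to 12.2% with fl/p30 and 6.71% with fl/BRM2. They were 0.33, 6.02 and 0.79 in GMP fl/p30, 0.87, 1.23 and 2.16 in GMP fl/BRM2 and 0.3, 0.33 and 1.49 in GMP fl/+. The weighted means of GMP fl/p30 and GMP fl/+ therefore rest mostly on replicate 2 and replicate 3. Without GMP fl/BRM2 replicate 2, 3 of the 9 were called in GMP fl/BRM2. The share of all genes called higher was then 0.572%, against 1.89% with all arrays.

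**Figure D2:**
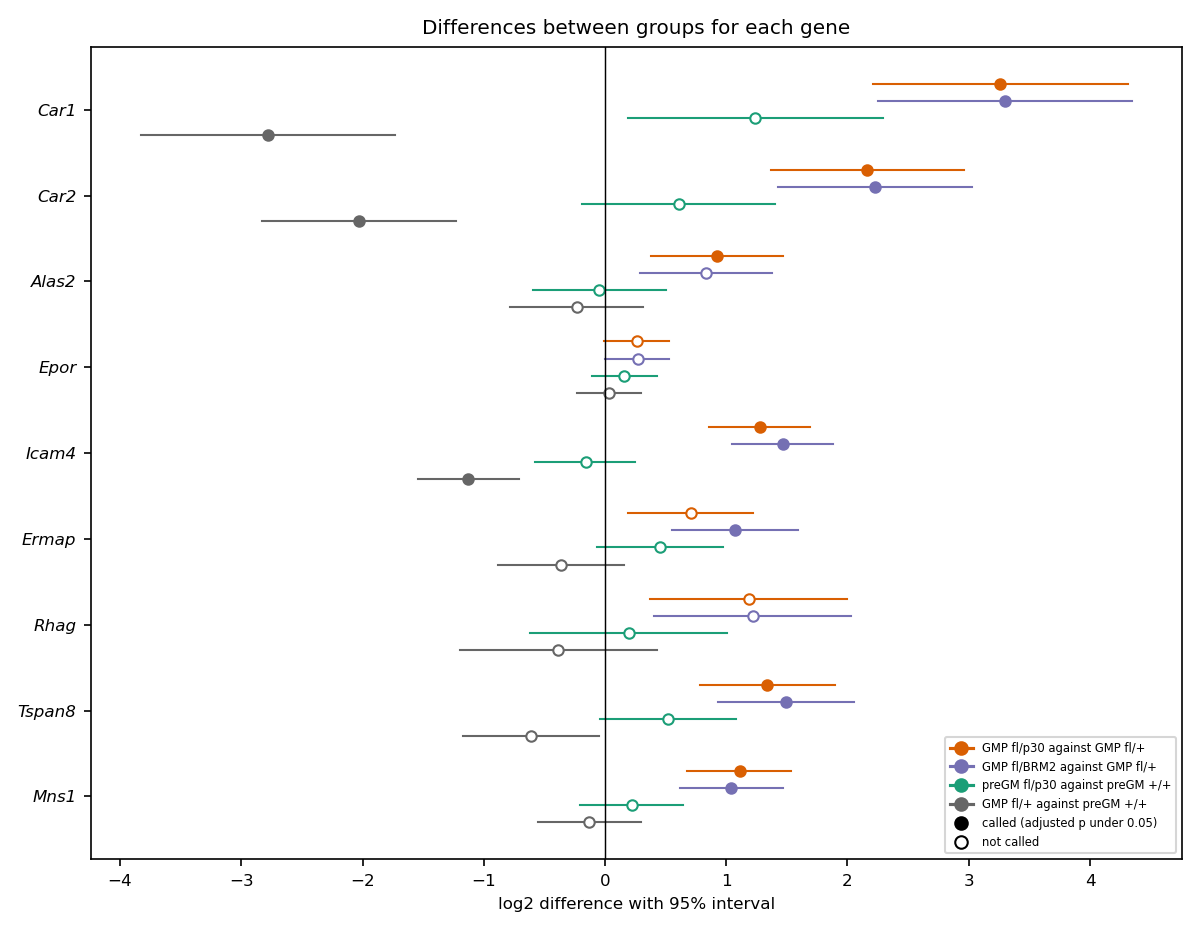
Log2 difference of each gene (points) with its 95% interval (lines) in 4 comparisons, each mutant minus the control of its stage and GMP fl/+ minus preGM +/+, with filled points for genes called at an adjusted p under 0.05. The 2 GMP mutants lie at or right of 0 for all 9 genes, while Car1, Car2 and Icam4 lie left of 0 in GMP fl/+ against preGM +/+.

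In control cells, 3 of the 9 genes were lower in GMPs than in preGMs. Car1 was 6.87-fold lower in GMP fl/+ than in preGM +/+ (log2 difference -2.78 ± 0.49 SE, limma adjusted p = 0.00432). Car2 was 4.08-fold lower (-2.03 ± 0.37 SE, limma adjusted p = 0.00531) and Icam4 2.19-fold lower (-1.13 ± 0.19 SE, limma adjusted p = 0.00382). These 3 calls held without any 1 of the 15 arrays. Of all genes, 6.02% were called lower and 4.19% higher in this comparison, and 0 of the 9 were called higher. With arrays centred on their medians the split of all genes was 1243 lower and 360 higher, against 1200 lower and 836 higher without centring. GMP fl/+ arrays were all below preGM +/+ arrays for 4 of the 9 genes (12.9% of all genes), the fourth being Tspan8 with a difference of -0.61 that was not called (limma adjusted p = 0.13). These control groups differ in genotype, fl/+ and +/+, as well as in stage, so stage and genotype cannot be told apart here.

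Within the fl/p30 animals, 0 of the 9 genes were called between GMPs and preGMs (0.642% of all genes, either direction). An unadjusted p under 0.05 was found for 2 of the 9 and for 2475 of all 19937 genes. Car1 averaged 10.79 ± 0.61 in GMP fl/p30 and 11.55 ± 0.50 in preGM fl/p30 (SD, n = 3 each), a log2 difference of -0.76 with a 95% interval of -1.81 to 0.29. Mns1 and Alas2 were higher in all 3 GMP arrays than in all 3 preGM arrays, by 0.76 (limma adjusted p = 0.115) and 0.74 (limma adjusted p = 0.223). The median of the 9 differences was 0.21, against 0.03 over all genes.

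In preGMs, 0 of the 9 genes were called between fl/p30 and +/+ by limma. An unadjusted p under 0.05 was found for 1, Car1, and for 2794 of all 19937 genes. Of all genes, 0.647% were called higher and 1.03% lower. The fl/p30 arrays were all above the +/+ arrays for 4 of the 9 genes, Car1, Car2, Ermap and Epor (12.4% of all genes), and 7 of the 9 differences were positive. Their median was 0.22, against 0.03 over all genes. When only the 6 preGM arrays were fitted, Car1 was called (limma adjusted p = 0.0181), beside 1.97% of all genes called higher and 3.4% lower in that fit.

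Whether the fl/p30 difference was larger in GMPs than in preGMs was tested as the GMP difference minus the preGM difference. It was positive for all 9 genes, between 0.10 for Epor and 2.02 for Car1, and 0 were called (0.00502% of all genes, either direction). At an unadjusted p under 0.05 there were 6 of the 9 and 2616 of all genes. Icam4 came nearest, at 1.44 with a 95% interval of 0.85 to 2.03 and a limma adjusted p of 0.0746. The array medians themselves differed by -0.12 in this comparison, and with the arrays centred on their medians Icam4 was called (1.56, limma adjusted p = 0.0433). Centring called 0.145% of all genes. Without GMP fl/+ replicate 1, 3 of the 9 genes were called, beside 7.43% of all genes. Without GMP fl/BRM2 replicate 1, 1 of the 9 was called (0.0752% of all genes), as it was without GMP fl/p30 replicate 3 (0.587%). The comparison uses control groups of different genotype at the 2 stages.

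The mutant alleles were also set against each other in GMPs. None of the 9 genes was called between GMP fl/p30 and GMP fl/BRM2 (0.00502% of all genes, either direction), and 0 had an unadjusted p under 0.05, against 688 of all genes. The differences ran from -0.36 for Ermap to 0.09 for Alas2. The 95% interval for Car1 was -1.08 to 1.01, which leaves room for a change of about 2-fold either way. For Icam4 it was -0.61 to 0.22, for Mns1 -0.36 to 0.49 and for Epor -0.27 to 0.26. The arrays of the mutants overlapped for every one of the 9 genes.

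**Figure D3:**
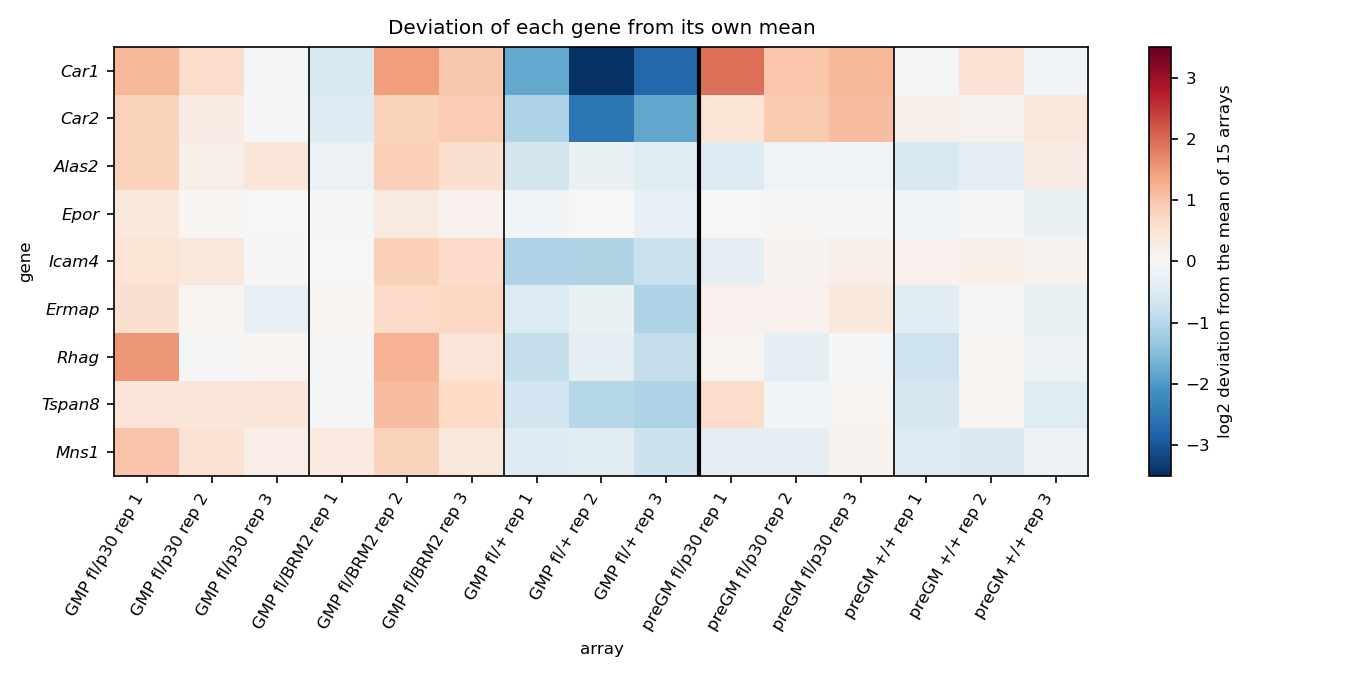
Deviation of each gene (rows) from its own mean over the 15 arrays, in log2 units (colour), in each array (columns, grouped by the 5 groups). The GMP fl/+ columns are blue or pale for all 9 genes, and GMP fl/p30 replicate 1 and GMP fl/BRM2 replicate 2 are the reddest GMP columns.

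Within the 2 mutant GMP groups, most of the 9 genes ranked the arrays alike. In GMP fl/p30, replicate 1 had the highest value of the group for 9 of 9 genes. In GMP fl/BRM2, replicate 1 had the lowest value for 9 of 9 and replicate 2 the highest for 7 of 9. The other groups were split: in GMP fl/+ the highest value fell in replicate 1 for 3 genes, in replicate 2 for 5 and in replicate 3 for 1, in preGM fl/p30 for 3, 2 and 4, and in preGM +/+ for 0, 6 and 3. Averaged over the 9 genes, the deviation from the mean of all arrays was 0.80, 0.28 and 0.09 in the 3 GMP fl/p30 arrays and -0.10, 0.89 and 0.61 in GMP fl/BRM2, against -0.79, -1.02 and -1.09 in GMP fl/+. In preGMs it was 0.24, 0.15 and 0.31 in fl/p30, against -0.30, 0.00 and -0.07 in +/+. Across the 15 arrays, Pearson's r between pairs of the 9 genes lay between 0.45 and 0.96 (36 pairs, median 0.73). After each group's mean was taken off it lay between 0.20 and 0.86 (median 0.51). These arrays share groups and amplification, so r is given as a description.

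Markers of the sorted cells varied over the same arrays. The mean deviation of 11 granulocyte-macrophage progenitor markers was -0.75, 0.01 and 0.89 in the GMP fl/p30 arrays and 0.76, -0.52 and 0.30 in GMP fl/BRM2, against 1.32, 0.94 and 0.90 in GMP fl/+. In GMP fl/p30 the array with the highest erythroid genes thus had the lowest marker level. The same held for replicate 2 in GMP fl/BRM2 and replicate 3 in preGM fl/p30. In GMP fl/+ replicate 1 was instead highest in both (erythroid mean -0.79) and replicate 3 lowest in both (-1.09). In preGM +/+ replicate 2 was highest in both (erythroid mean 0.00, markers 0.06). Marker levels were lowest in preGM fl/p30, at -1.33 to -1.12. Its erythroid means were 0.15 to 0.31, against 0.09 to 0.80 in GMP fl/p30. Of these 11 markers, 3 were called lower with fl/p30 (Irf8, a monocyte-branch factor, by -1.72, the G-CSF receptor Csf3r by -1.32 and Gfi1, a granulocyte factor, by -0.82). With fl/BRM2, Irf8 and Csf3r were called lower, by -1.44 and -1.35, and 0 were called higher in either. The fl/p30 count was 7 without GMP fl/p30 replicate 3. The fl/BRM2 count was 0 without GMP fl/+ replicate 2 or GMP fl/BRM2 replicate 2, 1 without any 1 of 8 other arrays and 4 without GMP fl/p30 replicate 1. The Csf3r call was lost without any 1 of 4 arrays with fl/p30 (limma adjusted p up to 0.139) and of 11 with fl/BRM2 (limma adjusted p up to 0.262). The part of cell composition in the differences of the erythroid genes was not tested. In sorted populations measured in bulk, more cells of a type and more RNA per cell cannot be told apart.

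**Figure D4:**
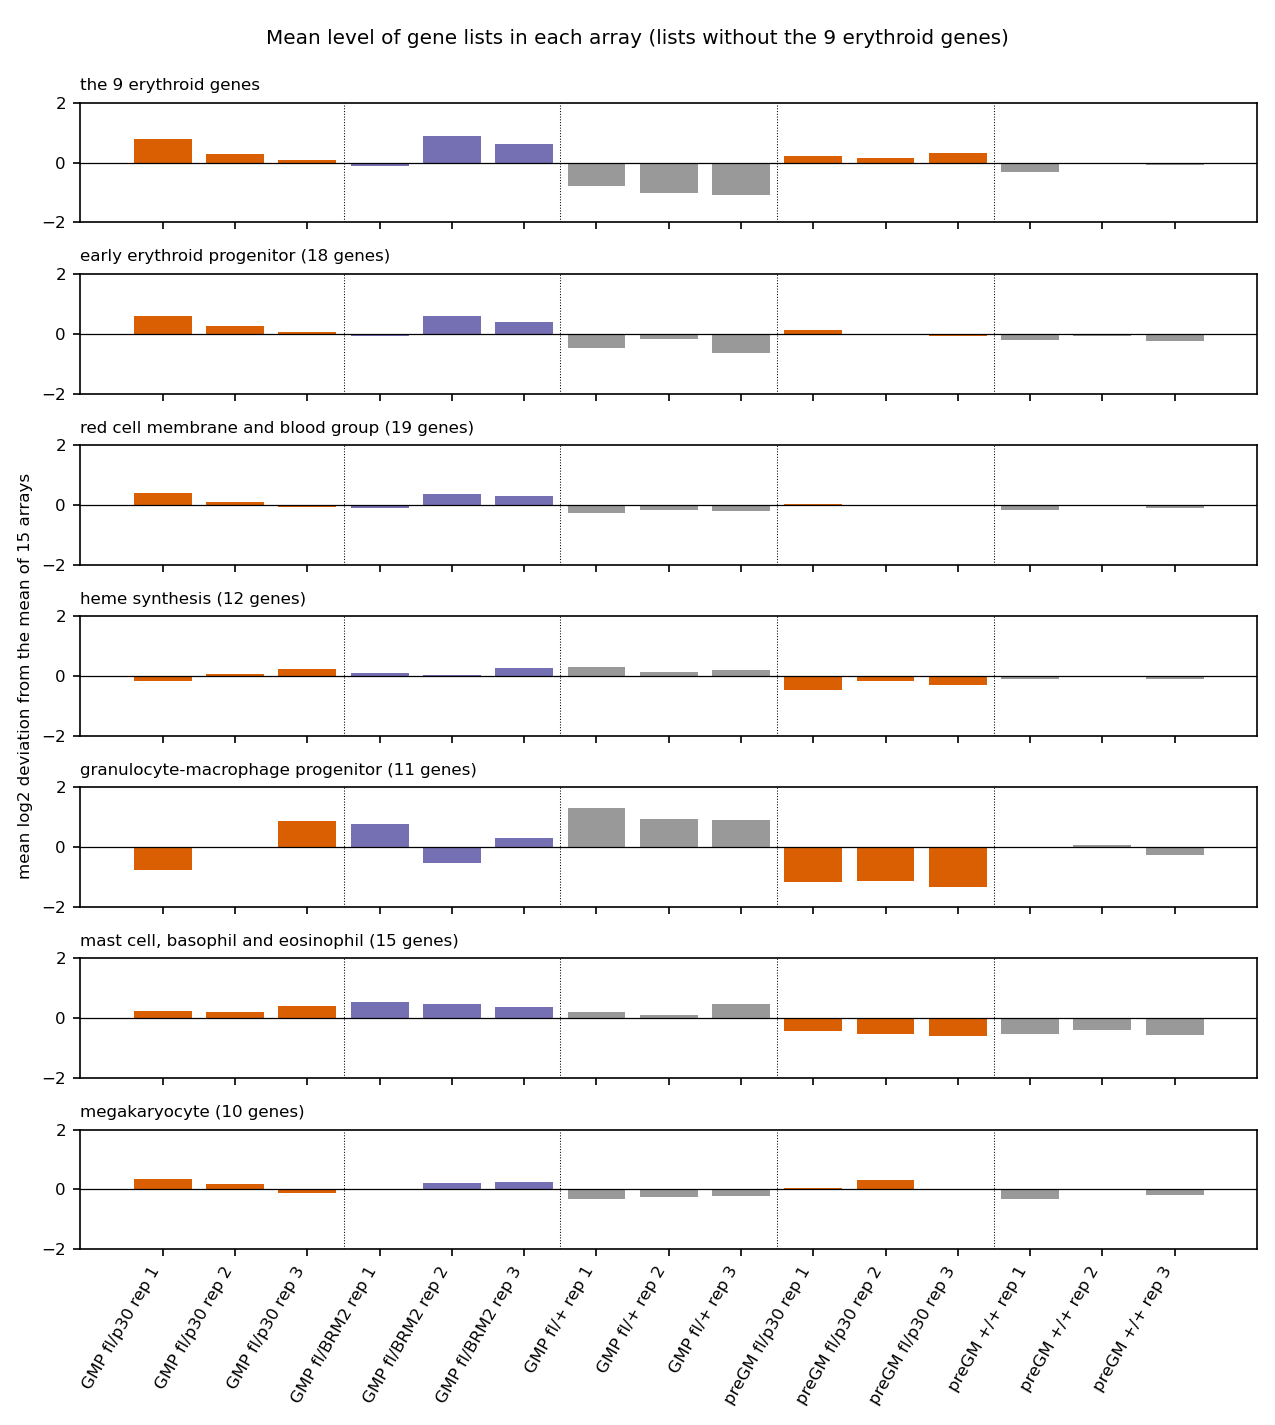
Mean log2 deviation from the mean of the 15 arrays (vertical axis, bars from 0) of the 9 genes and of 6 gene lists without them, in each array. The 9 genes, and on average the 18 other early erythroid genes, are lowest in GMP fl/+, where the 11 granulocyte-macrophage progenitor markers are highest.

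Genes used in the sort gave the following levels. Slamf1, which encodes CD150, lay below its own array's median in all 15 arrays (4.01 to 5.10), and Kit lay between 9.53 and 10.55. Itga2b, which encodes CD41 and was a negative gate in every group, averaged 7.95 in GMP fl/p30, against 6.90 in GMP fl/+, and was called higher (difference 1.04, limma adjusted p = 0.0244). That call was lost on leaving out replicate 1 or 2 of GMP fl/p30 (limma adjusted p up to 0.106). In GMP fl/BRM2 it averaged 7.89, a difference of 0.99 with a limma adjusted p of 0.0534. Fcgr2b, which encodes FcgRII, the positive gate of GMPs, averaged 7.59 in GMP fl/p30 and 7.61 in GMP fl/BRM2, against 8.66 in GMP fl/+. The differences of -1.07 and -1.05 (limma adjusted p = 0.051 and 0.0903) were not called. Fcgr3, a related Fc receptor gene, differed by 0.00 with fl/p30 and 0.09 with fl/BRM2. It was 2.98 higher in GMP fl/+ than in preGM +/+ (limma adjusted p = 4.59e-06). Eng, which encodes Endoglin, differed by 0.16 and 0.12 in the GMP mutants and was not called. Among markers of neighbouring cell types, 2 of 10 megakaryocyte genes were called higher in each GMP mutant, Itgb3 in both, and 0 lower. The fl/p30 count was 0 on leaving out replicate 1 or 2 of GMP fl/p30, and 1 on leaving out replicate 2 of GMP fl/+. The fl/BRM2 count was 0 without GMP fl/BRM2 replicate 2 and 1 without any 1 of 9 other arrays. Of 15 mast cell, basophil and eosinophil genes, 4 were called higher and 4 lower with fl/p30, and 4 higher and 2 lower with fl/BRM2, of which 1 lower without GMP fl/BRM2 replicate 2. The mast cell protease Cpa3 was higher by 3.09 with fl/p30 and by 3.00 with fl/BRM2, and Hdc, the histamine-forming enzyme, was lower by -2.21 and -1.90. Slc18a2 was higher by 2.34 and 2.40, and Gata2 by 1.93 and 1.77. Prg2 had the largest difference of the list with fl/p30, -3.45, and its call was lost without any 1 of 4 arrays (limma adjusted p up to 0.0939). Of 4 mature erythrocyte genes measured, 2 were called higher with fl/p30 (Slc4a1, the red cell anion exchanger, by 0.88 and Trim10 by 0.77) and Slc4a1 with fl/BRM2, by 1.02. Trim10 averaged 6.37 in GMP fl/p30 and 5.60 in GMP fl/+, the latter below the range of array medians. The fl/p30 count was 1 on leaving out replicate 3 of GMP fl/+ or replicate 1 of GMP fl/p30, and the fl/BRM2 count 2 without GMP fl/BRM2 replicate 1 or GMP fl/p30 replicate 1.

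Early erythroid and red cell membrane genes outside the 9 rose in part of their lists. Of all genes, 4.69% were called higher with fl/p30 and 1.89% with fl/BRM2. Of 18 other early erythroid progenitor genes, 6 were called higher and 0 lower in GMP fl/p30, and 5 higher and 0 lower in GMP fl/BRM2. Their median log2 difference was 0.67 with fl/p30 and 0.64 with fl/BRM2. Atp1b2, a sodium pump subunit, was higher by 2.58 with fl/p30 and 2.38 with fl/BRM2, and Ctse, the protease cathepsin E, by 1.92 and 1.88. The count with fl/BRM2 was 1 without GMP fl/BRM2 replicate 2 and 3 without GMP fl/BRM2 replicate 3 or GMP fl/+ replicate 3. Of 19 other red cell membrane and blood group genes, 4 were called higher and 0 lower with fl/p30, and 2 higher and 0 lower with fl/BRM2. The median log2 difference of these 19 was 0.33 with fl/p30 and 0.40 with fl/BRM2. Slc14a1, a urea transporter, was higher by 1.79 with fl/p30, and Kel, a blood group protein, by 1.12 with fl/p30 and 1.58 with fl/BRM2. The Kel call with fl/p30 was lost without any 1 of 11 arrays (limma adjusted p up to 0.179). The fl/p30 count of this list was 2 without any 1 of 8 arrays, and the fl/BRM2 count was 1 without GMP fl/BRM2 replicate 2 or 3. Of 12 iron uptake and storage genes, 1 was called higher with fl/p30 (Ireb2, by 0.55) and 0 by limma with fl/BRM2. In GMP fl/BRM2, 6 of the 12 had an unadjusted p under 0.05, against 2985 of all 19937 genes. The median log2 difference of the 12 was 0.18 with fl/p30 and 0.25 with fl/BRM2. Without GMP fl/p30 replicate 1 the limma adjusted p of Ireb2 was 0.052, and without GMP fl/+ replicate 1 the counts called higher were 2 with fl/p30 and 3 with fl/BRM2.

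Erythroid transcription factors were mixed. Of 16, 6 were called higher and 2 lower in GMP fl/p30, and 4 higher and 0 lower in GMP fl/BRM2. Gata1 was at 7.51, 7.38 and 7.02 in GMP fl/p30 and at 6.95, 7.88 and 7.53 in GMP fl/BRM2, against 6.10, 6.35 and 6.31 in GMP fl/+. The groups did not overlap, and the difference was 1.05 with fl/p30 (limma adjusted p = 0.00529) and 1.20 with fl/BRM2 (limma adjusted p = 0.0046). Nfe2, a factor of red cell and platelet precursors, was higher by 1.16 and 1.04. Its fl/BRM2 call was lost without any 1 of 11 arrays (limma adjusted p up to 0.24), and its fl/p30 call without replicate 1 or 2 of GMP fl/p30. The 2 factors called lower with fl/p30, named after their values were seen, were Lmo2, a bridging protein of blood transcription complexes, by -0.80 (limma adjusted p = 0.00629) and E2f4, a cell cycle factor, by -0.72 (limma adjusted p = 0.0349). The E2f4 call was lost without any 1 of 8 arrays (limma adjusted p up to 0.139). The fl/p30 count was 3 without GMP fl/p30 replicate 2. The fl/BRM2 count was 1 without GMP fl/+ replicate 3 or GMP fl/BRM2 replicate 2 or 3, and 2 without GMP fl/+ replicate 2 or any 1 of 4 preGM arrays. In preGMs, 0 of these 16, 0 of the 18 early erythroid genes and 0 of the 19 membrane genes were called by limma between fl/p30 and +/+, and 5, 5 and 3 of them had an unadjusted p under 0.05. Over all genes, 2794 of 19937 had an unadjusted p under 0.05 in that comparison.

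For each of the 9 genes, the other genes with the most like pattern were found by Pearson's r over the 15 arrays, among the 9968 genes above the median mean level. Gata1 was the most like Icam4 (r = 0.925) and the third most like Tspan8 (r = 0.908). Car1 was most like Marcks (0.974) and Car2 most like Rnf130 (0.971), which was also the second for Car1 (0.970). The most like genes were Mylk3 for Ermap (0.937), Aqp11 for Tspan8 (0.947) and Add1 for Mns1 (0.960). Parm1 came first for both Epor (0.948) and Rhag (0.929). For Alas2, Gm10644 came first (0.893) and Slc4a1 next (0.884). Each r is over the same 15 arrays, which fall into 5 groups, and is a description.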

How the data were processed

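Gene expression was measured in 15 samples on Affymetrix Mouse Gene 1.0 ST arrays, from 20 ng of total RNA that was then amplified, per the labels' protocols. The log2 values are those the authors deposited. Per the submitters' processing notes they were made with affy and RMA, a method that subtracts background, gives all arrays the same quantiles and combines the probes of a set. Neither the tool versions nor any filter is given in the sources used here. Array medians were 6.03 to 6.23. An array has no read depth, so 3 arrays per group set the precision.

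Of 34760 probe sets, 21640 had 1 gene symbol, 1321 several and 11799 none. RefSeq held 21553 of the named ones by Entrez ID, which changed 0 symbols. The probe set with the highest mean stood for each of the 954 genes with more than 1. A model of 5 group means was fitted to all 15 arrays with limma 3.58.1 (R 4.3.3) and eBayes moderation with no intensity trend (residual df 10, prior df 4.24). Each of 7 comparisons had its p-values adjusted (Benjamini-Hochberg, 19937 genes), with a threshold of 0.05. The fit was tested on simulated data. A fold is given only where the lower group's mean was above 6.23. The 3 arrays of a group came from separate animals.

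All 9 genes are named, and in each gene list up to 4 called genes with the largest difference among those whose arrays do not overlap (up to 2 where none was called), with the sort genes, and for likeness the top 3. The 9 genes and the lists were chosen with earlier results of these data known, so they are no independent support. The fl/p30 samples of both stages are paired by animal. After removal of group means, GMP and preGM arrays of 1 animal correlated by 0.334, 0.32 and 0.116, and the highest value between different animals was 0.154. Alternatives were the fit on the compared groups alone, array weights, median centring, intensity trend, the mean of all probe sets, a filter on dim genes, a minimum difference, both replicate blocks and each array left out.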

Additional observations from a re-analysis of the deposited data

How the results depend on the processing

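With 3 arrays per group, precision is limited by their number, and Epor and Rhag lay near or below the array medians, where the array resolves differences least. Across the alternatives other than leaving out an array, 461 values kept their direction and side of the threshold, 9 lost a call, 12 gained one and 8 changed sign. Across the single arrays left out, the counts were 892, 19, 8 and 26. When only the groups compared were fitted, the count of calls was 3 for GMP fl/p30, 1 for GMP fl/BRM2 and 1 for preGM fl/p30, each against its control. The shares of all genes called in these fits were 0.863%, 0.657% and 5.37%. The change made was the smaller number of arrays per fit. With array weights, 1 was called between GMP fl/p30 and preGM fl/p30 and 4 in the stage difference, beside 9.77% and 9.99% of all genes. The weights gave 7 and 9 in GMP fl/p30 and GMP fl/BRM2 against GMP fl/+, beside 20.4% and 11% of all genes. With arrays centred on their medians, 1 was called in the stage difference, beside 0.145% of all genes. The cause of these changes was not tested. With each array left out in turn, the count ran from 5 to 6 in GMP fl/p30, from 3 to 7 in GMP fl/BRM2 and from 0 to 3 in the stage difference. The share of all genes called in these fits ran from 2.69% to 15.4%, from 0.672% to 11.1% and from 0% to 7.43%. The count stayed at 0 between the preGM groups, between the GMP mutants and between the fl/p30 stages. It stayed at 3 in GMP fl/+ against preGM +/+, where the share of all genes ran from 3.19% to 23.5%. The animal as replicate block kept 6 calls in each GMP mutant, with Alas2 (limma adjusted p = 0.0666) lost and Rhag (limma adjusted p = 0.0492) gained in GMP fl/p30, and changed no other call. Beside these, 7.2% of all genes were called in GMP fl/p30 and 2.88% in GMP fl/BRM2. The replicate number as a block also kept 6 and 6, beside 5.92% and 2.19% of all genes. Of differences that changed sign, none was called. Between GMP fl/p30 and GMP fl/BRM2, centring gave Car1 0.01, Epor 0.04 and Rhag 0.02, and array weights gave Mns1 -0.01 and Alas2 -0.22. Leaving out single arrays there gave ranges of -0.62 to 0.39 for Car1, -0.50 to 0.17 for Car2, -0.15 to 0.24 for Mns1, -0.47 to 0.11 for Tspan8, -0.12 to 0.08 for Epor, -0.21 to 0.30 for Alas2 and -0.54 to 0.30 for Rhag. Between the preGM groups, array weights gave Alas2 0.06, and leaving out arrays gave -0.22 to 0.19 for Alas2 and -0.03 to 0.37 for Rhag. Between GMP fl/p30 and preGM fl/p30, Ermap ran from -0.33 to 0.09. Between GMP fl/+ and preGM +/+, weights and centring each gave Epor -0.05, and leaving out arrays gave -0.03 to 0.11 for Epor and -0.40 to 0.00 for Alas2. In the stage difference Epor ran from -0.02 to 0.17.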
